A study of Mus musculus with 23 samples.

Results

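The transcripts described here are those of 10 genes of itaconate production, oxidative stress defence and metal binding, namely *Acod1*, *Hmox1*, *Nqo1*, *Gclm*, *Gclc*, *Txnrd1*, *Srxn1*, *Sod2*, *Mt1* and *Mt2*, out of 26014 genes measured. They were listed by name for their known roles, with earlier results of these data known. They were found through the RefSeq accession of each array probe. Total RNA came from primary bone marrow-derived macrophages (BMDM), cells grown from mouse bone marrow with 10 ng/ml of the growth factor M-CSF for 9 days. The mice were wild type (wt), deficient in the kinase MK2 (MK2-/-) or deficient in both MK2 and its close relative MK3 (MK2/3-/-, the double knockout), on a C57BL/6J background and, per the labels, 12 to 13, 10 to 13 and 11 to 14 weeks old. BMDM of each genotype were left in medium or given 100 ng/ml lipopolysaccharide (LPS), a bacterial cell wall component, for 120 min. The 6 groups had 4 one-color Agilent arrays each, except MK2-/- BMDM in medium with 3, which makes 23 arrays. The comparisons ask what LPS does to these transcripts, and whether the loss of MK2, or of MK2 and MK3, alters their level in medium, their level in LPS or the LPS response.

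The product of *Acod1* makes itaconate from cis-aconitate, an intermediate of the citrate cycle, and is a well-known product of activated macrophages. Itaconate and electrophiles can modify KEAP1, which otherwise marks the transcription factor NRF2 for degradation, and NRF2 in turn drives genes of glutathione synthesis, thiol reduction, quinone reduction and heme breakdown through antioxidant response elements. Metallothioneins are small cysteine-rich proteins that hold zinc and copper, and their genes respond to metals and to inflammation. MK2 and MK3 are kinases downstream of p38 that act on the stability and translation of many inflammatory mRNAs.

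All 11 probes of the 10 genes, *Hmox1* having 2, gave a signal well above background on all 23 arrays, and no spot was saturated. Over all spots that are not controls, 48.4% to 69.4% were well above background on an array. The highest share was that of MK2/3-/- medium replicate 2. The lowest was that of MK2/3-/- medium replicate 1, which also had the lowest median signal. *Mapkapk2*, which encodes MK2, ran from 14.19 to 15.37 on the log2 scale in wt and from 11.54 to 12.30 in both knockouts after LPS, and *Mapkapk3*, which encodes MK3, ran from 13.77 to 14.35 in wt and from 10.36 to 10.91 in MK2/3-/- BMDM after LPS. Both were thus lower in the libraries labeled as knockouts, and whether the probes lie in the deleted parts was not tested. One array went against its labels, which give male mice. MK2-/- LPS replicate 3 had a log2 signal of 8.34 for *Xist*, a transcript of female cells, and signals not above background for the Y-linked genes *Ddx3y* and *Eif2s3y*, the reverse of the other 22 arrays. Without it, *Acod1*, *Sod2*, *Txnrd1*, *Mt1* and *Mt2* still passed for LPS in MK2-/- BMDM, at 7.62, 2.94, 1.97, 0.58 and 2.84 on the log2 scale, and other values that it moved by more than 1.5 times, or whose call it decided, are given with and without it. Of the 5 macrophage markers measured, *Adgre1*, *Itgam*, *Csf1r*, *Mertk* and *Fcgr1*, all 5 were well above background on all arrays. Stromal collagen transcripts were present too, and their levels are set beside the genotype comparisons below. Each genotype lay on a slide of its own that held both treatments, so genotype and slide cannot be told apart.

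*Acod1* (NM_008392, chr14:103047012-103056573 in GRCm38.p6) rose further with LPS than any other of the 10 genes. In wt BMDM its log2 signals were 9.91, 9.62, 8.79 and 8.98 in medium and 18.14, 18.28, 18.56 and 18.05 in LPS. In MK2-/- BMDM they were 11.17, 10.83 and 10.53 in medium and 18.58, 18.47, 18.28 and 18.36 in LPS. In MK2/3-/- BMDM they were 12.39, 10.57, 8.98 and 9.83 in medium and 18.62, 18.49, 18.74 and 18.31 in LPS. The groups lay far apart in every genotype, and the LPS arrays of all genotypes lay within a narrow band while the medium arrays were spread widely. The log2 difference was 8.93 ± 0.46 (SE) in wt (488-fold, adjusted p = 4.23e-11), 7.58 ± 0.49 in MK2-/- (191-fold, adjusted p = 1.48e-09) and 8.10 ± 0.46 in the double knockout (274-fold, adjusted p = 1.54e-10). Ordered from the largest rise among the 26014 genes, *Acod1* stood at place 9 in wt, 31 in MK2-/- and 22 in the double knockout. RNA was taken from whole cultures, so more RNA per cell and more cells with the transcript cannot be told apart here or below.

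**Figure D1:**
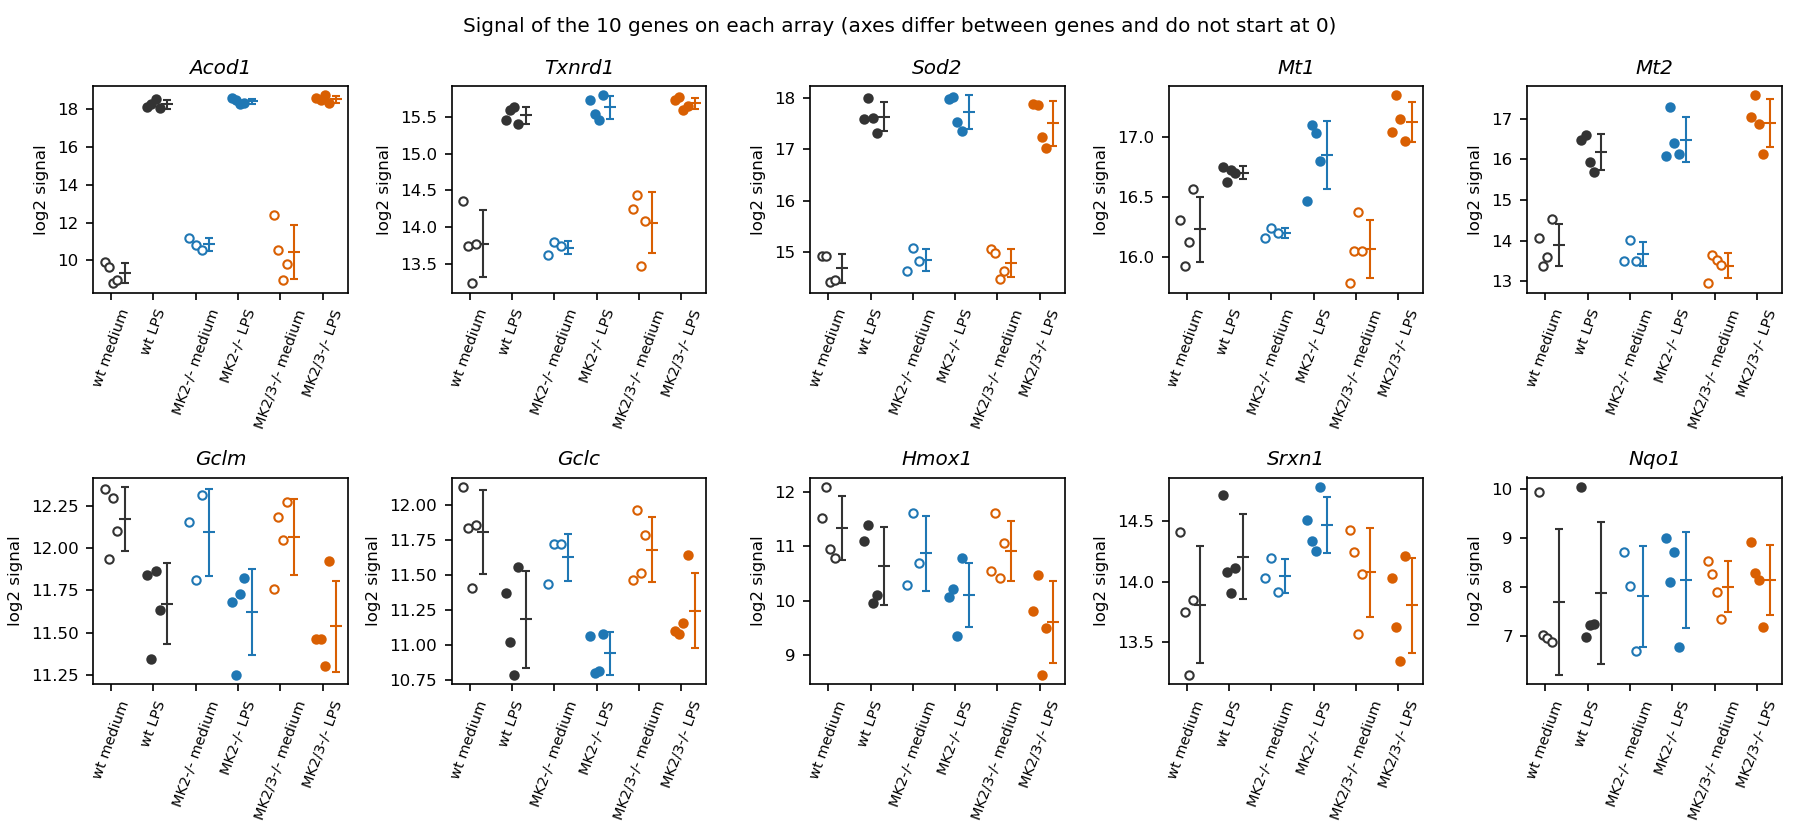
Log2 signal (vertical axis) of the 10 genes on each of the 23 arrays, by genotype and treatment, with open points for medium, filled points for LPS and a bar for the mean ± SD. The LPS points of *Acod1*, *Sod2*, *Txnrd1* and *Mt2* sit above all medium points in every genotype, and *Nqo1* has 1 wt culture near 10 while the other wt arrays are near 7.

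*Sod2* (NM_013671), the superoxide dismutase of mitochondria, and *Txnrd1* (NM_001042523), the cytosolic thioredoxin reductase that keeps thioredoxin reduced at the cost of NADPH, also rose in all genotypes. *Sod2* was at 14.93, 14.93, 14.41 and 14.46 in wt medium and at 17.59, 18.01, 17.62 and 17.32 in wt LPS. In the knockouts *Sod2* ran from 14.49 to 15.07 in medium and from 17.04 to 18.02 in LPS. No LPS array overlapped a medium array. Its log2 differences were 2.95 ± 0.22 in wt (7.72-fold, adjusted p = 1.08e-08), 2.87 ± 0.24 in MK2-/- (7.33-fold, adjusted p = 4.87e-08) and 2.71 ± 0.22 in the double knockout (6.55-fold, adjusted p = 2.40e-08).

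*Txnrd1* was at 14.35, 13.74, 13.24 and 13.76 in wt medium and at 15.45, 15.60, 15.63 and 15.40 in wt LPS. Its signals in MK2-/- BMDM were 13.62, 13.80 and 13.74 in medium and 15.73, 15.54, 15.46 and 15.79 in LPS. In MK2/3-/- BMDM they were 14.24, 14.43, 13.47 and 14.08 in medium and 15.73, 15.77, 15.59 and 15.64 in LPS. Again no LPS array overlapped a medium array of its genotype, and the LPS arrays were closer to each other than the medium arrays in wt (SD 0.11 against 0.46) and MK2/3-/- BMDM (SD 0.08 against 0.42). The rise was 1.75 ± 0.20 in wt (3.36-fold, adjusted p = 2.40e-06), 1.91 ± 0.21 in MK2-/- (3.76-fold, adjusted p = 1.98e-06) and 1.63 ± 0.20 in the double knockout (3.09-fold, adjusted p = 4.11e-06) on the log2 scale.

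Promoter sequence was taken from RefSeq (GRCm38.p6) as the 250 bases before a transcript start, 5′ to 3′ on the strand of the gene, and 8 of the 10 genes were found there, *Hmox1* and *Gclc* not. Both strands were searched for the core of the antioxidant response element, TGACNNNGC, for the metal response element cores TGCGCNC and TGCACNC, and for the NF-kB consensus. The windows of *Sod2* and *Txnrd1* are shown because they hold a match in genes that rose with LPS in all genotypes. *Sod2* has the NF-kB consensus, in capitals below, at bases -83 to -74, where it reads on both strands. *Txnrd1* has 3 windows, of which only the one shown has a match, with TGACNNNGC on the minus strand at bases -92 to -84.
Sod2 chr17:13007589-13007838, plus strand: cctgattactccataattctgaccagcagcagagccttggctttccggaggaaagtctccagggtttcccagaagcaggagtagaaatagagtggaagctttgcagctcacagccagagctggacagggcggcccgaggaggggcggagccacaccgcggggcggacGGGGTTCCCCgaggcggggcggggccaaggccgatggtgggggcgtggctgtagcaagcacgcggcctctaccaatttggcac
Txnrd1 chr10:82858956-82859205, plus strand: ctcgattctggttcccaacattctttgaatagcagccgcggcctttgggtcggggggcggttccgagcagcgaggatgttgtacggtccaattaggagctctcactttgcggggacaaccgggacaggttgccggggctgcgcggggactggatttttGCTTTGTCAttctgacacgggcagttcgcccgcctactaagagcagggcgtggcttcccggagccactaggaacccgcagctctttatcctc
Of 32817 windows of this length, 3.897% hold the NF-kB consensus and 10.16% hold TGACNNNGC. The windows of *Acod1* and *Nqo1* had none of the letters searched. A match is a description of the sequence and no evidence of binding.

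The metallothionein genes *Mt2* (NM_008630, chr8:94172618-94173567) and *Mt1* (NM_013602, chr8:94178883-94180327) are neighbors, and both rose. *Mt2* was at 14.06, 13.37, 13.60 and 14.54 in wt medium and at 16.49, 16.60, 15.93 and 15.68 in wt LPS. In MK2-/- BMDM it was at 13.50, 14.00 and 13.50 in medium and at 16.09, 17.29, 16.41 and 16.14 in LPS. In MK2/3-/- BMDM it was at 12.95, 13.64, 13.53 and 13.41 in medium and at 17.04, 17.58, 16.87 and 16.14 in LPS. Medium and LPS did not overlap in any genotype, and 3 of the 4 MK2/3-/- LPS arrays were above all wt LPS arrays. The log2 rise of *Mt2* was 2.28 ± 0.33 in wt (4.87-fold, adjusted p = 3.92e-05), 2.81 ± 0.35 in MK2-/- (7.03-fold, adjusted p = 7.92e-06) and 3.52 ± 0.33 in the double knockout (11.5-fold, adjusted p = 1.18e-07).

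*Mt1* moved in the same direction by less. It was at 16.30, 15.92, 16.12 and 16.56 in wt medium and at 16.75, 16.62, 16.72 and 16.70 in wt LPS. Signals of MK2-/- BMDM were 16.16, 16.24 and 16.20 in medium and 16.46, 17.10, 17.03 and 16.80 in LPS. Those of MK2/3-/- BMDM were 15.78, 16.05, 16.37 and 16.05 in medium and 17.04, 17.34, 17.15 and 16.96 in LPS. All LPS arrays were above all medium arrays of their genotype, narrowly so in wt. The log2 rise was 0.47 ± 0.16 in wt (1.39-fold, adjusted p = 0.0444), 0.65 ± 0.17 in MK2-/- (1.56-fold, adjusted p = 0.0101) and 1.06 ± 0.16 in the double knockout (2.09-fold, adjusted p = 3.85e-05). The wt call was lost in 15 of the 23 fits that left out 1 array and with normexp background correction (adjusted p = 0.119). The 2 genes encode similar proteins, and whether a probe binds transcripts of both was not tested. Without the array that carried *Xist*, the MK2-/- rises were 2.84 for *Mt2* and 0.58 for *Mt1*, the latter at an adjusted p of 0.0321.

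The *Mt1* and *Mt2* windows are shown because these neighbors moved together. *Mt2* has metal response element cores at -223 to -217, -128 to -122 and -50 to -44, and *Mt1* has 1 at -23 to -17, all in capitals. The *Mt1* window lies before a transcript start inside the gene range given above, so most of it overlaps that range. *Mt2* also has TGACNNNGC at -79 to -71, which is not capitalized and overlaps none of them.
Mt2 chr8:94172368-94172617, plus strand: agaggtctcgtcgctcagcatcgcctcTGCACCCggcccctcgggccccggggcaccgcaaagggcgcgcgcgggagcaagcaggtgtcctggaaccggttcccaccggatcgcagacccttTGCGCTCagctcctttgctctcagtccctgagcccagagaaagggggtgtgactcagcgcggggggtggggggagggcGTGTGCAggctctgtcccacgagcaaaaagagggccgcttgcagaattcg
Mt1 chr8:94178839-94179088, plus strand: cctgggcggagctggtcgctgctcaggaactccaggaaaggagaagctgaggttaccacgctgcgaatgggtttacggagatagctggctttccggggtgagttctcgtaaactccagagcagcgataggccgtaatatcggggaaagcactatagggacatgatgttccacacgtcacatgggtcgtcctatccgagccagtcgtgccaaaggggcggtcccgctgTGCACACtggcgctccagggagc
TGCGCNC stands in 12.51% and TGCACNC in 10.41% of all windows, and either of them in 21.41%. Among the 10 genes, TGCGCNC also stood in the windows of *Gclm*, at -138 to -132 and -72 to -66, and of *Srxn1*, at -19 to -13.

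*Gclm* and *Gclc* encode the modifier and the catalytic subunit of glutamate-cysteine ligase, the enzyme of the first step of glutathione synthesis. Both were lower in LPS, against the direction of *Txnrd1*, which like them is a known NRF2 target. *Gclm* (NM_008129) was at 12.35, 11.93, 12.29 and 12.10 in wt medium and at 11.84, 11.35, 11.87 and 11.63 in wt LPS. In MK2-/- BMDM it ran from 11.81 to 12.31 in medium and from 11.25 to 11.83 in LPS, and in MK2/3-/- BMDM from 11.76 to 12.27 and from 11.30 to 11.92. The wt groups did not overlap, and those of the knockouts did. The log2 difference was -0.50 ± 0.18 in wt (adjusted p = 0.0583), -0.47 ± 0.19 in MK2-/- (adjusted p = 0.0971) and -0.53 ± 0.18 in the double knockout (adjusted p = 0.0328). *Gclm* thus fell past the threshold in MK2/3-/- BMDM alone, but its LPS difference was much alike in all genotypes. The interactions were 0.028 (MK2-/- against wt), -0.028 (MK2/3-/- against wt) and -0.055 (MK2/3-/- against MK2-/-), and none passed.

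The spread of *Gclm* lay largely between cultures. Medium and LPS arrays from the same culture could be matched for 11 cultures, and *Gclm* was lower in LPS in 11 of 11, by 0.29 to 0.74 on the log2 scale. With the culture as a block, *Gclm* also passed the threshold in wt (adjusted p = 0.0157) and MK2-/- BMDM (adjusted p = 0.0324). Under scaling to the 75th percentile its MK2/3-/- call was lost (adjusted p = 0.224). Its window is shown as the counterpart of that of *Txnrd1*, with TGACNNNGC in capitals on the minus strand at -134 to -126, where it overlaps a metal response element core at -138 to -132. Another metal response element core lies at -72 to -66 and is not capitalized.
Gclm chr3:122245307-122245556, plus strand: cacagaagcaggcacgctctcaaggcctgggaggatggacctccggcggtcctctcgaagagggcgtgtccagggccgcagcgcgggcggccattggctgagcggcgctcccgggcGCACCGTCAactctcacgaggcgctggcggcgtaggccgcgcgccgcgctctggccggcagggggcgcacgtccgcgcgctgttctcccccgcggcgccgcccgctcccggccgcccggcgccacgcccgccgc
The core TGACNNNGC stood in the window of *Gclm*, whose signal was lower in LPS, and in windows of *Txnrd1* and *Mt2*, which rose. Of all windows 10.16% hold it, and its part in the LPS differences was not tested.

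*Gclc* (NM_010295) was at 12.13, 11.84, 11.40 and 11.86 in wt medium and at 11.37, 11.02, 10.79 and 11.55 in wt LPS. MK2-/- BMDM stood at 11.43, 11.72 and 11.72 in medium and at 11.07, 10.80, 10.82 and 11.08 in LPS. MK2/3-/- BMDM stood at 11.47, 11.96, 11.51 and 11.78 in medium and at 11.10, 11.08, 11.16 and 11.64 in LPS. The MK2-/- groups did not overlap, and 1 LPS array reached into the medium range in each of the other genotypes. *Gclc* fell by 0.62 ± 0.19 in wt (adjusted p = 0.0254) and by 0.68 ± 0.20 in MK2-/- BMDM (adjusted p = 0.0214) on the log2 scale, and its difference was -0.44 ± 0.19 in MK2/3-/- BMDM (adjusted p = 0.102, and 0.0442 with the culture as a block). It was lower in LPS in 11 of 11 cultures. The MK2-/- call was lost without the array that carried *Xist* (-0.64, adjusted p = 0.0527), and the calls in wt and MK2-/- BMDM were lost under scaling to the 75th percentile (adjusted p = 0.108 and 0.0645).

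**Figure D2:**
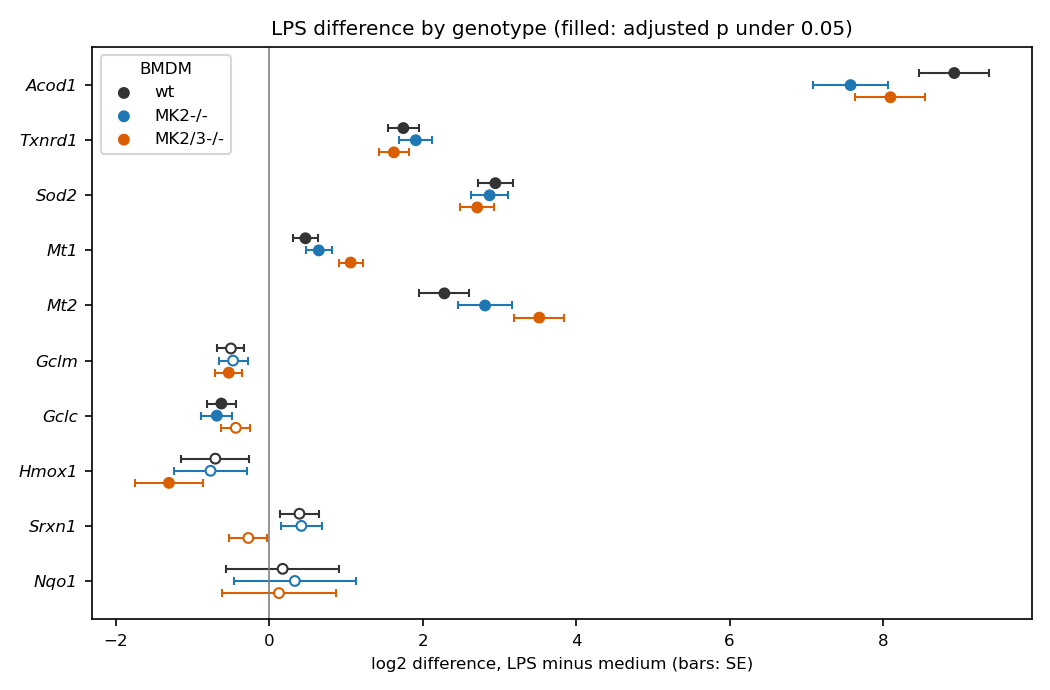
Log2 difference between LPS and medium (horizontal axis) for the 10 genes in each genotype, with the SE of the fit as bars and filled points for an adjusted p under 0.05. *Acod1* is at 7.58 to 8.93, *Sod2*, *Mt2* and *Txnrd1* are between 1.63 and 3.52, *Gclm*, *Gclc* and *Hmox1* are below 0, and *Srxn1* and *Nqo1* lie close to 0.

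*Hmox1* (NM_010442, chr8:75093618-75100593), which encodes the inducible heme oxygenase, was lower in LPS on both of its probes. On the probe with the higher wt difference, A_55_P2029687, wt BMDM were at 11.53, 12.10, 10.95 and 10.79 in medium and at 11.11, 11.39, 9.96 and 10.10 in LPS. MK2-/- BMDM were at 10.29, 11.62 and 10.70 in medium and at 10.07, 10.22, 9.35 and 10.78 in LPS. MK2/3-/- BMDM were at 10.55, 11.62, 10.42 and 11.07 in medium and at 9.81, 10.48, 8.64 and 9.51 in LPS. The ranges of medium and LPS overlapped in every genotype. The log2 difference was -0.70 ± 0.44 in wt (adjusted p = 0.353), -0.76 ± 0.48 in MK2-/- (adjusted p = 0.324) and -1.31 ± 0.44 in the double knockout (adjusted p = 0.0362). Without the array that carried *Xist* the MK2-/- difference was -0.51, and under scaling to the 75th percentile the MK2/3-/- call was lost (-0.94, adjusted p = 0.0674).

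The other *Hmox1* probe, A_51_P263965, ran from 13.90 to 15.29 in wt medium and from 13.15 to 14.03 in wt LPS, from 13.47 to 14.85 and from 12.05 to 13.58 in MK2-/- BMDM, and from 13.57 to 14.90 and from 12.56 to 13.36 in MK2/3-/- BMDM. In a fit of all 32885 probes its log2 difference was -0.86 in wt (adjusted p = 0.151), -1.27 in MK2-/- (adjusted p = 0.0382) and -1.30 in the double knockout (adjusted p = 0.0168). The probes thus had the same direction in all genotypes, and the MK2-/- call of this probe was lost without the array that carried *Xist*, the lowest at 12.05 (-1.004, adjusted p = 0.117). Within cultures this probe was lower in LPS in 11 of 11, by 0.40 to 1.76, and the first probe in 10 of 11. MK2/3-/- LPS was the lowest group of the first probe, with 1 array at 8.64.

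*Nqo1* (NM_008706), the quinone reductase often used as a readout of NRF2, differed between cultures by far more than between treatments. In wt BMDM it was at 9.93, 7.02, 6.96 and 6.87 in medium and at 10.04, 6.97, 7.23 and 7.25 in LPS, so that the first culture stood about 3 log2 units above the other wt cultures in both treatments. MK2-/- BMDM gave 8.72, 8.02 and 6.68 in medium and 8.99, 8.10, 8.70 and 6.77 in LPS. MK2/3-/- BMDM gave 8.52, 8.27, 7.89 and 7.34 in medium and 8.92, 8.29, 8.14 and 7.18 in LPS. Medium arrays of different cultures spanned 3.25 log2 units, whereas the difference between LPS and medium within a culture ran from -0.16 to 0.40. *Nqo1* was higher in LPS in 9 of 11 cultures. The group differences were 0.18 ± 0.74 in wt, 0.33 ± 0.80 in MK2-/- and 0.13 ± 0.74 in the double knockout, with adjusted p = 0.944, 0.865 and 0.940. With the culture as a block adjusted p was 0.902, 0.823 and 0.909. That block used 1 correlation, 0.24, for all genes, while *Nqo1* in medium and LPS correlated at 0.98 over 11 cultures. Over the alternatives that kept all arrays the lowest adjusted p was 0.367, 0.516 and 0.475. The sign of the group differences depended on single arrays in every genotype, and without the array that carried *Xist* the MK2-/- difference was 0.15.

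**Figure D3:**
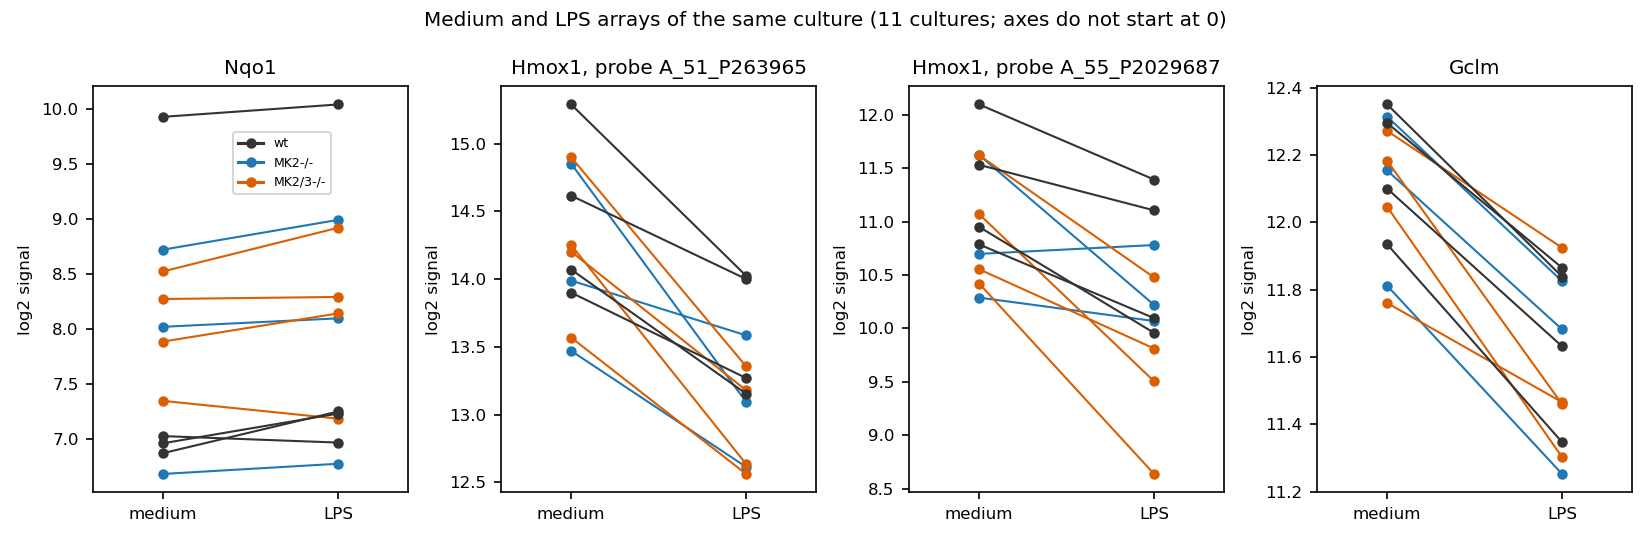
Log2 signal (vertical axis) of *Nqo1*, both *Hmox1* probes and *Gclm* in medium and LPS, with a line for each of 11 cultures colored by genotype. The *Nqo1* lines are nearly level and lie up to 3.25 log2 units apart, whereas the *Gclm* lines and those of *Hmox1* probe A_51_P263965 go down in 11 of 11 cultures.

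*Srxn1* (NM_029688) encodes sulfiredoxin, which repairs overoxidized peroxiredoxins. It was at 14.41, 13.75, 13.23 and 13.85 in wt medium and at 14.71, 14.08, 13.91 and 14.12 in wt LPS. The MK2-/- signals were 14.03, 14.20 and 13.91 in medium and 14.51, 14.33, 14.25 and 14.78 in LPS. The MK2/3-/- signals were 14.43, 14.24, 13.57 and 14.07 in medium and 14.03, 13.63, 13.35 and 14.21 in LPS. The signal was higher in LPS in every wt and MK2-/- culture and lower in 3 of the 4 MK2/3-/- cultures, and all 4 MK2-/- LPS arrays were above the medium arrays of that genotype. None of the differences passed, at 0.39 ± 0.25 in wt (adjusted p = 0.352), 0.42 ± 0.27 in MK2-/- (adjusted p = 0.337) and -0.27 ± 0.25 in the double knockout (adjusted p = 0.491). Under scaling to the 75th percentile *Srxn1* was higher past the threshold in wt (0.77, adjusted p = 0.0224) and MK2-/- BMDM (0.85, adjusted p = 0.0189), and the MK2/3-/- value turned to 0.12 (adjusted p = 0.807). That scaling put the median LPS difference of all genes at 0.15, 0.20 and 0.063 on the log2 scale in the same order.

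In wt BMDM, 5 of the 10 genes rose and 1 fell, where 8.26% of all 26014 genes rose and 8.89% fell. In MK2-/- BMDM 5 rose and 1 fell, beside 8.48% and 10.1% of all genes, and with both kinases deleted 5 rose and 2 fell, beside 11.9% and 12.9%. The genes that rose were *Acod1*, *Sod2*, *Txnrd1*, *Mt1* and *Mt2* in each genotype. Those that fell past the threshold were *Gclc* in wt and MK2-/- and *Gclm* and *Hmox1* in MK2/3-/- BMDM, and all 3 were lower in LPS in every genotype. The median log2 difference of the 10 genes was 0.43 in wt, 0.53 in MK2-/- and 0.59 in the double knockout, against 0.0051, -0.011 and -0.024 for all genes. With the culture as a block 7, 7 and 8 of the 10 genes passed, beside 22%, 23.7% and 30.9% of all genes. Medium and LPS arrays did not overlap for 6 of the genes in wt, 7 in MK2-/- and 5 in the double knockout, and for 22.9%, 32.8% and 26.4% of all genes without a missing value. Markers of other cells moved with LPS as well. *Zbtb46*, a marker of dendritic cells, rose by 5.49, 5.40 and 5.77, and the other 2 dendritic cell markers, *Flt3* and *Xcr1*, did not pass. The summed linear signal of these 3 markers ran from 59.9 to 318 over the medium arrays and from 937 to 1941 over the LPS arrays. *Lck*, 1 of 3 T cell markers measured, rose by 2.53, 2.97 and 4.76, while *Cd3e* and *Cd3g* did not pass. The sum of the T cell markers ran from 928 to 2410 in medium and from 1283 to 11567 in LPS. Of the 5 macrophage markers 2 fell in wt and MK2-/- BMDM, *Mertk* (-1.69 and -1.60) and *Fcgr1* (-1.27 and -1.23), and none passed in MK2/3-/- BMDM, where *Pdgfrb*, 1 of the 4 stroma markers, rose by 3.23. The sum of the macrophage markers ran from 423352 to 482464 in medium and from 354778 to 495275 in LPS, and that of the stroma markers from 519 to 106205 and from 993 to 88076. The part of these markers in the LPS values was not tested. For a single gene, the exact two-sided permutation test over arrays cannot go below p = 0.0286 with 4 arrays against 4 or against 3.

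None of the 10 genes differed between genotypes past the threshold in limma's test, in medium or in LPS. The share of all genes that passed was 0.00769% for MK2-/- against wt, 0.0769% for MK2/3-/- against wt and 0.0461% for MK2/3-/- against MK2-/- in medium, and 0.0308%, 1.64% and 0.161% in LPS. At an unadjusted p under 0.05 there were 1, 1 and 0 of the 10 genes in medium and 0, 3 and 1 in LPS. The share of all genes at that unadjusted threshold was not counted, so these counts describe single genes only. The methods' t-test after Benjamini-Hochberg adjustment called 0 in each comparison. For MK2-/- against wt BMDM in LPS the log2 differences lay between -0.53 (*Hmox1*) and 0.31 (*Mt2*), and without the array that carried *Xist* between -0.28 (*Hmox1*) and 0.33 (*Srxn1*). The other *Hmox1* probe was at -0.78 in that comparison (adjusted p = 0.669), and at -0.51 without that array. These comparisons share their wt or MK2-/- arrays.

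The largest genotype difference was that of *Acod1* in medium. The wt arrays averaged 9.33 ± 0.53 (SD, n = 4), those of MK2-/- BMDM 10.84 ± 0.32 (SD, n = 3) and those of MK2/3-/- BMDM 10.44 ± 1.45 (SD, n = 4) on the log2 scale. All 3 MK2-/- arrays were above all wt arrays (1.52 ± 0.49, adjusted p = 1.00, unadjusted p = 0.00624, exact permutation p = 0.0286), as 7.02% of all genes did not overlap in that comparison. Cultures carry letters that recur between genotypes. The letter lowest for *Acod1* in medium, at 8.79 in wt and 8.98 in MK2/3-/- BMDM, had no MK2-/- medium array. Its part in this difference was not tested, and the difference ran from 1.34 to 1.72 over the fits that left out 1 array. The MK2/3-/- arrays overlapped those of wt (1.12 ± 0.46, adjusted p = 1.00, exact permutation p = 0.171), and without MK2/3-/- medium replicate 1, which was at 12.39, the difference was 0.47. That array had the lowest share of spots well above background, and its *Acod1* signal before quantile normalization was 11.23. After LPS the means were 18.26 ± 0.22, 18.42 ± 0.13 and 18.54 ± 0.18 (SD, n = 4 each), and no difference passed (lowest adjusted p = 0.860).

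In LPS, *Hmox1* was lower and *Mt1* and *Mt2* were higher in MK2/3-/- than in wt BMDM before adjustment. *Mt1* had a mean of 16.70 ± 0.05 in wt and 17.12 ± 0.17 in the double knockout (SD, n = 4 each), with all 4 MK2/3-/- arrays above all wt arrays (0.42 ± 0.16, adjusted p = 0.216, exact permutation p = 0.0286), beside 5.79% of all genes without overlap. *Mt2* was at 16.18 ± 0.44 and 16.91 ± 0.59 (0.73 ± 0.33, adjusted p = 0.331), and *Hmox1* at 10.64 ± 0.72 and 9.61 ± 0.76 (-1.03 ± 0.44, adjusted p = 0.309). On the other *Hmox1* probe that difference was -0.68 (adjusted p = 0.465). Between the knockouts in LPS, *Srxn1* was at 14.47 ± 0.23 in MK2-/- and 13.80 ± 0.39 in the double knockout, with all 4 MK2/3-/- arrays below (-0.66 ± 0.25, adjusted p = 0.454, and -0.73 without the array that carried *Xist*). *Gclc* was higher, narrowly, in all 4 MK2/3-/- than in all 4 MK2-/- LPS arrays (0.30 ± 0.19, adjusted p = 0.736, 0.26 without that array and 0.17 without MK2/3-/- LPS replicate 4), beside 5.13% of all genes without overlap.

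The LPS response itself was compared between genotypes by the interaction of genotype and treatment, and none of the 10 genes passed, where 0.00384% (MK2-/- against wt), 0.0115% (MK2/3-/- against wt) and 0% (MK2/3-/- against MK2-/-) of all genes did. At an unadjusted p under 0.05, where the share of all genes was not counted, there were 0, 2 and 0. The pair was *Mt1*, whose LPS difference was larger by 0.59 ± 0.22 in MK2/3-/- than in wt BMDM (adjusted p = 0.900, unadjusted p = 0.0158), and *Mt2*, larger by 1.24 ± 0.46 (adjusted p = 0.894, unadjusted p = 0.0147). The LPS difference of *Acod1* was smaller by 1.35 ± 0.67 in MK2-/- and by 0.83 ± 0.65 in MK2/3-/- than in wt BMDM (adjusted p = 1.00 in both). With 3 or 4 arrays a group, these differences did not pass although they were larger than their errors. Genotype differences of that size in the LPS response could thus have been missed.

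Stromal transcripts also differed between genotypes, and not past the threshold. *Col1a1* averaged 12.33 in wt, 9.61 in MK2-/- and 10.20 in the double knockout in medium, and *Col1a2* averaged 14.18, 11.86 and 11.81. The summed linear signal of the 4 fibroblast and stroma markers ran from 4480 to 106205 in wt, 1240 to 34719 in MK2-/- and 519 to 59181 in MK2/3-/- medium arrays, with 2 of the 4 well above background on all arrays. Their part in the genotype values was not tested.

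Around the 10 genes, 90 further genes of the same pathways were listed by function, also with earlier results of these data known, and all 90 were measured. In wt BMDM 14 of the 90 rose and 7 fell with LPS, in MK2-/- BMDM 14 rose and 11 fell, and in MK2/3-/- BMDM 19 rose and 17 fell. Of all genes 8.26% rose and 8.89% fell in wt, 8.48% and 10.1% in MK2-/- and 11.9% and 12.9% in MK2/3-/- BMDM, so that the falls in wt were near the share of all genes. Of the 8 regulators of NRF2, 4 rose and 0 fell in wt. They were *Maff*, a small MAF partner of NRF2 and BACH1 (5.52 in wt, 4.69 in MK2-/- and 5.21 in the double knockout on the log2 scale), *Mafk*, another (1.77, 2.11 and 2.66), *Sqstm1*, which encodes the autophagy receptor p62 that binds KEAP1 (1.68, 2.32 and 1.97), and *Cul3*, the ubiquitin ligase scaffold that works with KEAP1 (0.66, 0.66 and 0.79). *Nfe2l2*, which encodes NRF2, had differences of 0.48, 0.08 and -0.12 that did not pass (adjusted p = 0.252, 0.919 and 0.811), and *Keap1* differences of -0.34, -0.67 and -0.31, of which the MK2-/- value passed (adjusted p = 0.0495), but not without the array that carried *Xist* (adjusted p = 0.102). Without that array 14 of the 90 rose and 9 fell in MK2-/- BMDM.

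Among 19 other NRF2 target enzymes and transporters, 2 rose and 3 fell in wt BMDM, beside 8.26% and 8.89% of all genes, and the median difference was -0.082. *Slc7a11*, the cystine importer that feeds glutathione synthesis, rose by 5.49, 5.29 and 5.42 in wt, MK2-/- and MK2/3-/- BMDM (its probe was well above background on 21 of the 23 arrays), and *Abcc1*, an exporter of glutathione conjugates, by 1.16, 1.30 and 1.40. *Osgin1* (-3.24, -3.44 and -2.88), *Cbr3*, a carbonyl reductase (-0.92, -1.23 and -1.32), and *Tkt*, the transketolase of the pentose phosphate pathway (-0.49, -0.53 and -0.64), fell in all genotypes. Known NRF2 targets of the list and of the 10 genes were among both the rises and the falls. The part of NRF2 in these differences was not tested.

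The counts of the other lists stand beside the same 8.26% of all genes that rose and 8.89% that fell in wt BMDM. In the 16 genes of the glutathione and thioredoxin systems, 0 rose and 2 fell. They were *Txnip*, an inhibitor of thioredoxin (-3.06, -2.97 and -1.77), and *Gpx4*, which reduces lipid peroxides (-0.69, -0.58 and -0.70), and both also fell in the knockouts. None of the 4 genes of superoxide and peroxide removal passed in wt BMDM. Of 7 genes of NADPH oxidase and NO synthase, 2 rose in wt, *Nos2*, the inducible NO synthase (2.76, 3.45 and 3.92), and *Ncf1*, the p47phox subunit (0.50, 0.34 and 1.08, the MK2-/- value at an adjusted p of 0.137). Of the 12 genes around itaconate in the citrate cycle 1 fell in wt, *Fh1*, the fumarase (-0.52, -0.41 and -0.69, the MK2-/- value at an adjusted p of 0.108). For heme and iron 2 of 14 rose and 1 fell in wt. *Alas1*, of the first step of heme synthesis, rose by 1.25, 1.09 and 1.00, *Ireb2*, an iron sensor, rose by 1.04, 1.32 and 0.85, and *Slc40a1*, the iron exporter, fell (-2.14, -2.06 and -2.33). For zinc and copper 4 of 10 rose and 0 fell in wt, led by *Slc39a14*, a zinc importer (3.05, 3.64 and 3.42), *Slc30a4*, a zinc transporter (1.15, 1.18 and 1.21), and *Slc31a1*, a copper importer (0.80, 0.76 and 0.80). *Mtf1*, which encodes the metal-sensing factor that binds metal response elements, was at 0.48, 0.46 and 0.30 without passing.

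**Figure D4:**
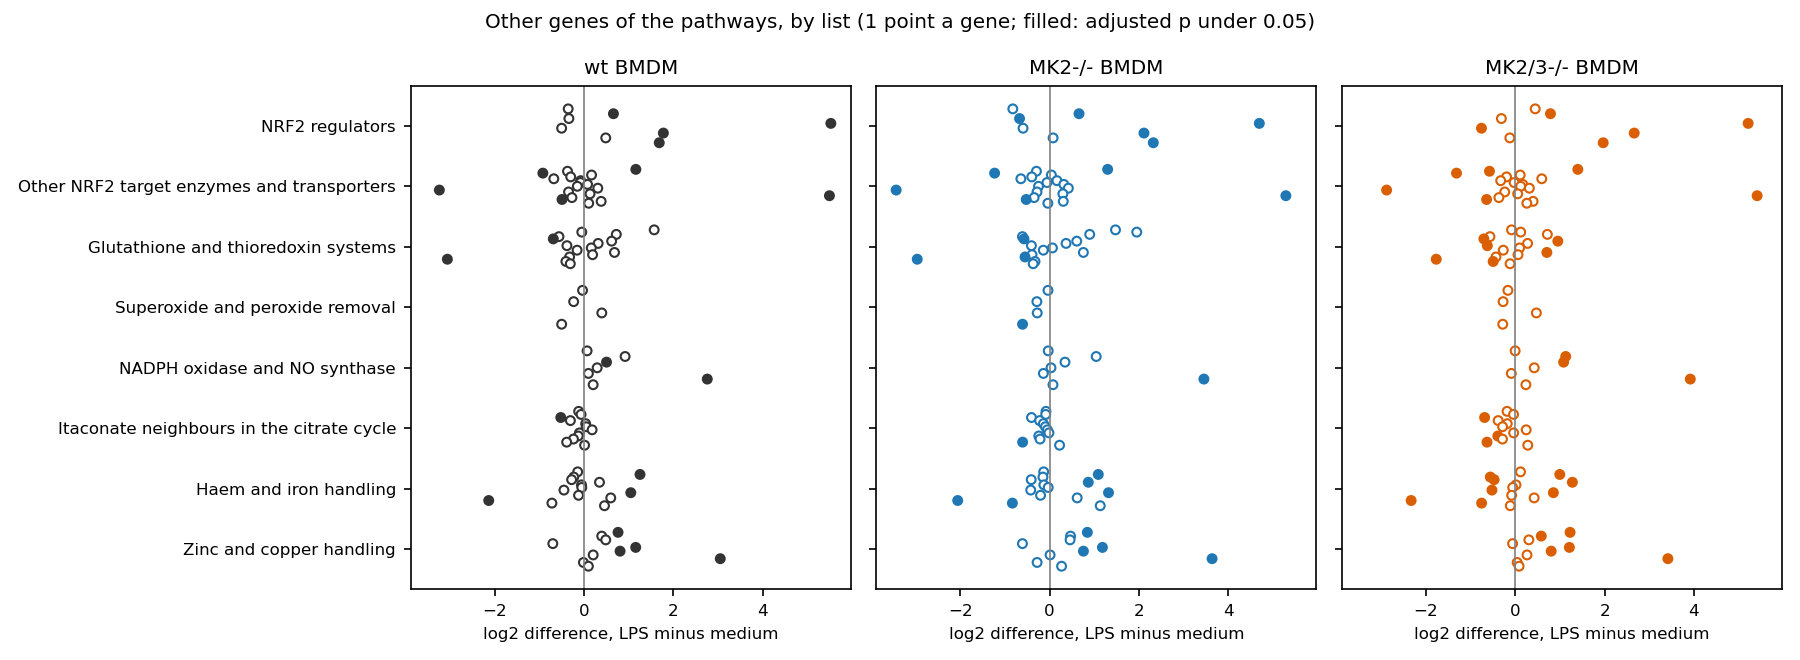
Log2 difference between LPS and medium (horizontal axis) for 90 further genes in 8 functional lists (rows), 1 panel a genotype and 1 point a gene, filled where the adjusted p was under 0.05. *Maff* and *Slc7a11* lie farthest to the right and *Osgin1* and *Txnip* farthest to the left in wt BMDM.

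Between genotypes, 0 of the 90 genes passed in medium or in an interaction, where 0.00769% to 0.0769% and 0% to 0.0115% of all genes passed. In LPS 1 passed for MK2-/- and 3 for MK2/3-/- against wt and 0 between the knockouts, beside 0.0308%, 1.64% and 0.161% of all genes. In LPS *Prdx6*, a peroxiredoxin, passed as lower than in wt with MK2 deleted (adjusted p = 0.0191) and with both kinases deleted (adjusted p = 0.0333), on a probe well above background on 7 of the 23 arrays, for which no size is given. The other 3 *Prdx6* probes, well above background on all 23 arrays, had differences between 0.044 and 0.29 in these comparisons, so the call rests on the dim probe, and for MK2-/- BMDM it was lost without the array that carried *Xist* (adjusted p = 0.0657). *Gpx2*, a glutathione peroxidase (1.60, adjusted p = 0.0246), and *Ncf1* (0.66, adjusted p = 0.0217) were higher in MK2/3-/- than in wt BMDM in LPS.

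The genes most like *Acod1* over the 23 arrays, by Pearson's r of log2 signal among 15693 genes, were *Il1b* (r = 0.995), *Olr1* (0.994) and *Traf1* (0.992). Those most like *Hmox1* were *Abcf2* (0.897), the transcript EU234049 (0.868) and *B3galt6* (0.856). For *Mt1* they were *Mt2* (0.939), *Ints13* (0.932) and *Tnfsf18* (0.929). The arrays share treatment groups and slides, so these values describe a common pattern and no more.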

How the data were processed

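RNA of 23 BMDM samples was labeled with one dye and hybridized to Agilent arrays, 1 a sample, with a medium and an LPS sample from each of 11 cultures. The authors read the spots with Agilent Feature Extraction (11.0.1.1 per the file headers), and the deposited scanner files hold a linear, background-subtracted intensity that is not normalized between arrays. The table of log2 values deposited by the authors was quantile normalized and centered on each probe's median, and served as an alternative. All per-sample columns were used.

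Spots marked by the scanner software (non-uniform or population outliers) were set to missing, control spots were left out, replicate spots were averaged in log2 and arrays were quantile normalized. Only probes carrying RefSeq or GenBank accessions were used, and 27509 of 29150 RefSeq probes were named through a RefSeq table (GRCm38.p6), and entries with other identifiers were left out. A gene with several probes was represented by that with the greatest wt LPS induction, which favors rises in the lists, left 26014 genes, and took the *Hmox1* probe that fell less. All 10 genes passed with no filter on low signals. One limma fit of 6 group means, with Benjamini-Hochberg adjustment over all genes and a threshold of 0.05, gave each comparison, interactions included. Exact permutation tests over arrays are two-sided. Calculations used R 4.3.3, limma 3.58.1 and the data.table package (1.17.8), and figures Python 3.11.15 with matplotlib 3.10.9. The fit was tested on simulated data, where its recovery limit was first missed for genes with a wide spread and then set on those with a spread below the median. The number of arrays limits the precision.

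Cultures link a medium and an LPS array of a genotype through a letter in the names of the scanner files and the age in the labels, since replicate numbers do not always match. The deviations of 11 same-culture pairs from their group means correlated at 0.066 to 0.57 (median 0.26, 10 of 11 over 0.1) over 25902 genes and at 0.36 to 0.78 over 12570 genes well above background on all arrays, against medians of -0.080 and -0.19 for 33 pairs of different cultures. The main fit and the permutation tests did not use this pairing. Values with the culture as a block are given where they change a call. The methods describe independent experiments, so replicates are separate cultures. The same letters recur in all genotypes, and the genotype comparisons were not paired by letter. Whether cultures of the same letter shared an experiment was not tested.

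The 10 genes, the pathway lists and the markers were chosen with earlier results of these data known. Named genes are the 10, up to 3 rises and 3 falls a list among those past the threshold in wt BMDM, and the 3 most alike to *Acod1*, *Hmox1* and *Mt1*. Other genes of the lists (*Cul3*, *Nfe2l2*, *Keap1*, *Mtf1*, and those that passed between genotypes) and the targeted, sex-linked and marker genes were named after their values were seen. Of the other marker lists, *Cd3e*, *Lck*, *Flt3* and 2 of 4 granulocyte markers were above background on all arrays, no B cell, erythroid or mast cell marker was, and *Cd68*, *Ly6g*, *Ighm* and *Trac* had no matched probe. Alternatives were scaling to the 75th percentile, normexp background correction (offset 50, on the median signal), the deposited log2 values, a floor of 5, the mean of all probes, a filter on dim probes, only the groups compared, the methods' t-test, the culture as a block and leaving out each array.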

Additional observations from a re-analysis of the deposited data

Results flagged for a closer look

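Over 55 groups of 4 arrays (11 probes in 5 groups), 3 had an array whose gap to its nearest neighbor was above Dixon's critical value, where chance gives about 1 in 20. *Nqo1* in wt medium had replicate 1 at 9.93 on the log2 scale, with the next array at 7.02, and in wt LPS replicate 1 at 10.04, with the next at 7.25. Both arrays are from the same culture, and without the LPS array the wt difference between LPS and medium was -0.55. *Gclc* in MK2/3-/- LPS had replicate 4 at 11.64, with the next array at 11.16, and without it *Gclc* passed the threshold for a fall with LPS in MK2/3-/- BMDM (-0.57, adjusted p = 0.0318).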

How the results depend on the processing

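The number of the 10 genes past the threshold ran from 4 to 7 in wt, 5 to 7 in MK2-/- and 5 to 8 in MK2/3-/- BMDM over the alternatives, and was 0 in every genotype comparison and interaction. Except for the random block below, the share of all genes under each alternative is not given here. These counts thus describe the 10 genes only. *Acod1*, *Sod2*, *Mt2* and *Txnrd1* kept direction and call for LPS in all genotypes under all alternatives. Scaling to the 75th percentile reversed *Srxn1* in MK2/3-/- BMDM (0.12) and shifted the median of all genes by 0.14 (wt), 0.21 (MK2-/-) and 0.087 (double knockout) with LPS and, for MK2/3-/- against wt and against MK2-/-, by 0.15 and 0.16 in medium and 0.15 and 0.13 in LPS. Leaving out 1 array moved *Nqo1* between -0.55 and 0.92 in wt, between -0.23 and 0.79 in MK2-/- and between -0.13 and 0.44 in MK2/3-/- BMDM, with 4, 1 and 2 fits reversed. It took the call from *Gclc* in 5 fits in wt and 4 in MK2-/-, and from *Gclm* in 6 and *Hmox1* in 5 in MK2/3-/- BMDM. With only the groups compared, or with the methods' t-test, *Mt1* was lost in wt (adjusted p = 0.0839 and 0.0877) and MK2-/- (0.0558 and 0.0706), *Gclc* in wt (0.116 and 0.147), and *Hmox1* (0.0755 and 0.118) and *Gclm* (0.0903 and 0.0957) in MK2/3-/- BMDM. The cause of these changes was not tested. With the culture as a random replicate block 7, 7 and 8 genes passed for LPS, beside 22%, 23.7% and 30.9% of all genes. The same numbers of the 10 genes passed with a fixed block, which was chosen after seeing the data. The block changed no call other than *Gclm* in wt and MK2-/- and *Gclc* in MK2/3-/- BMDM. The methods' t-test gave no value for interactions, and the fixed block none for genotype comparisons.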
